A study of Mus musculus with 6 samples.

Results

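The genes described here are those of cholesterol synthesis and uptake: the enzymes that lead from acetyl-CoA to cholesterol, the proteins that switch these enzymes on and off with the sterol content of the cell, and the carriers that move and store cholesterol. They were chosen by name from a list of 28 genes, and a probe was taken where its platform annotation, or the present symbol of the same gene identifier, gave one of these names. On the arrays 24 of the 28 were found, with 48 probes, out of 19057 named genes. Acat2, Hmgcs1, Fdft1 and Soat1 were not analysed here. The 23 genes with a probe brighter on average than the median probe were tested, and Ggps1 is described by its values alone. The study measured total RNA of the fundic gastric mucosa, the acid-secreting lining of the stomach body, from C57Bl/6Ncr mice aged 3 months. The groups were 3 arrays from wild type mice and 3 from mice labelled Lasp1 knockout, Lasp1 being an actin-binding protein abundant in parietal cells. The labels name no treatment and do not describe the Lasp1 allele. Whether each array held a separate mouse is not given either, and the spread behind the p-values may thus be technical.

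Cells make cholesterol by a single long route. Acetyl units are joined and reduced to mevalonate, mevalonate is phosphorylated and cut to isoprene units, these are condensed to farnesyl diphosphate and squalene, squalene is oxidised and closed to lanosterol, and lanosterol is trimmed to cholesterol. The transcription factor SREBP2, the product of Srebf2, turns on nearly the whole route. Scap escorts SREBP2 out of the endoplasmic reticulum when sterols are scarce, and the Insig proteins hold Scap back when sterols are plentiful. In the stomach, cholesterol is a component of the membranes of parietal cells, which recycle large amounts of membrane during acid secretion.

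The arrays were not alike. Lasp1 itself read 177315 to 275068 on the wild type arrays and 88521 to 111002 on the knockout arrays with its brightest probe, with no overlap, at a log2 difference of -1.30 (SE 0.21). The signal was thus reduced to 0.406-fold and stayed far above the background of 1061 to 1212 on the knockout arrays too; which part of the gene the probe reads is not given in the sources used here. Lasp1 did not pass the test over all probes either (limma adjusted p = 0.994). The arrays numbered 1 to 3 in their titles are wild type replicates 1 and 2 and knockout replicate 1, and those numbered 4 to 6 are wild type replicate 3 and knockout replicates 2 and 3. What this number stands for is not given in the labels. Probes above the brightest of 26 probes of Y-linked genes, taken as background, made up 35.8% of all probes on wild type replicate 3 and 39.4% to 45.8% on the others. Wild type replicate 3 had the lowest value of the 6 arrays for 64.9% of tested probes. The summed intensity of the 7 pancreatic acinar markers found of 10 listed was 4070699 on that array, 377419 on knockout replicate 3 and 69697 to 81239 elsewhere. All 7 of these lay above background on at least 1 array. The 10 squamous markers summed to 669858 on wild type replicate 2, 1189748 on knockout replicate 1 and 15427 to 33292 elsewhere, and 9 of the 10 lay above background on some array. The 7 smooth muscle markers summed to 251975 on knockout replicate 1 and 38746 to 110694 elsewhere. Parietal cell markers, by contrast, were found for 7 of 7 genes and summed to 1380160 to 1484663 in wild type and 1375161 to 1560847 in knockout mucosa. Other lists moved with single arrays. The 5 chief cell markers summed to 1661895 on wild type replicate 3 and 905638 to 1037157 elsewhere. The 5 hepatocyte markers summed to 526187 and 535450 on knockout replicates 2 and 3 and 394941 to 419085 elsewhere. Of these 5 markers 3 lay above background on some array. The 2 proliferation markers found of 4 summed to 12942 and 11317 on knockout replicates 2 and 3 and 5533 to 8652 elsewhere. In the deposited values knockout replicates 2 and 3 were also the arrays with the higher sterol gene levels, and wild type replicate 3 the one with the lowest. After quantile normalization wild type replicate 3 was not the lowest. The median sterol gene, relative to its own mean over the arrays, then stood at -0.059 there. It stood at -0.12 on wild type replicate 1 and -0.10 on knockout replicate 1. The part that cell composition or material of other tissues had in the differences below was not tested.

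No gene of cholesterol synthesis or uptake passed the test of knockout against wild type. All 23 tested genes nevertheless read higher on average in the knockout arrays, by 0.11 (Npc2) to 0.56 (Fdps) on the log2 scale, with standard errors of 0.13 to 0.26 (n = 3 each). Their median difference was 0.28, where the median over all 22640 tested probes was 0.10 and 76.9% of probes lay above 0. Among the 11320 probes above the 75th percentile of signal, the median was 0.17 and 88.5% lay above 0. The 20 genes of the list with such a probe had a median of 0.27. None of the 23 passed (limma, adjusted p = 0.994 for each), as against 0.00883% of all tested probes. An unadjusted p under 0.05 in the limma fit was reached by 3 of the 23 (Lss, Fdps and Mvd) and by 392 of all probes. With array weights 7 of the 23 passed (Mvd, Idi1, Lss, Tm7sf2, Nsdhl, Sc5d and Insig2), among 1816 of all probes. The deposited arrays share a median but not a distribution. After quantile normalization, which gives all arrays one distribution, the median of the 23 was 0.13 against 0.0036 over all probes, and 19 of them stayed above 0. The other 4, Lbr, Insig1, Scap and Npc2, then had differences of -0.063, -0.062, -0.0038 and -0.078.

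The size of the differences depended on a single array. Wild type replicate 3 had the lowest value of the 6 arrays for 20 of the 23 genes. Without that array the median of the 23 was 0.14, that of all probes was -0.0039, and 21 genes lay above 0, with Lbr at -0.093 and Hsd17b7 at -0.041. Both medians were thus lower without it, and the highest single difference was then that of Idi1 (0.38). On the other side, knockout replicate 2 had the highest value for 13 of the 23 genes, where it was the highest array for 21.4% of all tested probes. After quantile normalization wild type replicate 3 was lowest for 8 of the 23 genes (26.5% of all probes) and highest for 5 (21.9%). Knockout replicate 2 was then highest for 9 (16.9% of all probes) and lowest for 0. In bulk tissue, fewer cells of a type and less RNA per cell cannot be told apart.

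**Figure D1:**
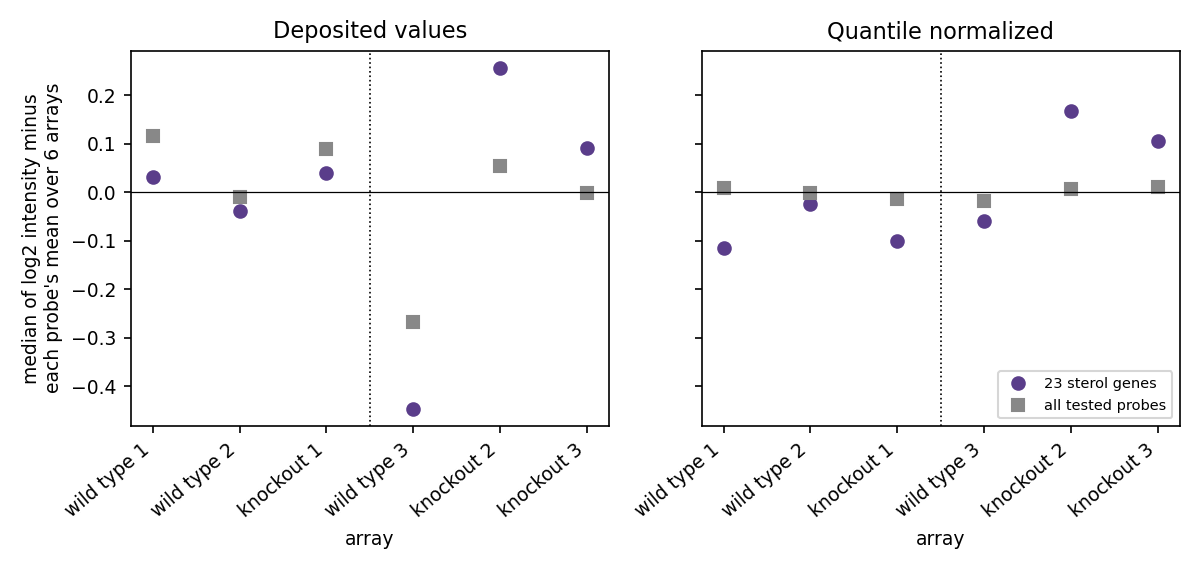
Median over the 23 sterol genes (circles) and over all tested probes (squares) of the log2 intensity minus each probe's own mean over the 6 arrays, for the deposited values (left) and after quantile normalization (right). Each point is 1 array, and the dotted line parts titles 1 to 3 from titles 4 to 6. In the deposited values the sterol genes lie at -0.45 on wild type replicate 3 and at 0.26 on knockout replicate 2, where all probes lie at -0.27 and 0.05. After quantile normalization knockout replicates 2 and 3 lie at 0.17 and 0.10 and the other 4 arrays between -0.12 and -0.02.

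SREBP2 acts through the sterol response element. Its core, or a form with 1 mismatch, was found in promoters of 10 of these genes, and 4 of those promoters are printed as examples. The windows run from 250 bases before to 50 bases after the transcription start and are taken from RefSeq on GRCm38.p6. Those at hand were 29 windows for 23 of the 28 genes. Fdps, Fdft1, Sqle, Stard4 and Npc1 had none among them and were not scanned. They are written 5′ to 3′, and capitals mark the closest matches to the core TCACNCCAC on either strand.
Hmgcs1 (GRCm38.p6, chr13:119690101-119690400, plus strand): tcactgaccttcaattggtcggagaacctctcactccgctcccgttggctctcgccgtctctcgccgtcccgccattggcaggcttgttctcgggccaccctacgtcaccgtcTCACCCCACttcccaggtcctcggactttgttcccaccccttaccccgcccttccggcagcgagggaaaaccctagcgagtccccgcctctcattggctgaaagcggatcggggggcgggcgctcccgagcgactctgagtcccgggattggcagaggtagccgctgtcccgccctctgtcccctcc
Cyp51 (GRCm38.p6, chr5:4104648-4104947, minus strand): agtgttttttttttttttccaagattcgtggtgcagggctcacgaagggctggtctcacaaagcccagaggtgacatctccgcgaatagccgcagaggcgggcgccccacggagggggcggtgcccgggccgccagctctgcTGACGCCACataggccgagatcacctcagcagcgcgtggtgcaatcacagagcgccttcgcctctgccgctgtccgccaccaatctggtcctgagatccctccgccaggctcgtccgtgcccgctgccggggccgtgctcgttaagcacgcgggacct
Hsd17b7 (GRCm38.p6, chr1:169969156-169969455, minus strand): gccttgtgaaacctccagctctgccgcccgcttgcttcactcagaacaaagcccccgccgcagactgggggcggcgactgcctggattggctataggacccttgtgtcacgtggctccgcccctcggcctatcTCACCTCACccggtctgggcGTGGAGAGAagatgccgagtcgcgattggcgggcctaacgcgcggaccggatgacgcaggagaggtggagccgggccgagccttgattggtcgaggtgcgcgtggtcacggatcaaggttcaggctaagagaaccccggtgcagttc
Srebf2 (GRCm38.p6, chr15:82147019-82147318, plus strand): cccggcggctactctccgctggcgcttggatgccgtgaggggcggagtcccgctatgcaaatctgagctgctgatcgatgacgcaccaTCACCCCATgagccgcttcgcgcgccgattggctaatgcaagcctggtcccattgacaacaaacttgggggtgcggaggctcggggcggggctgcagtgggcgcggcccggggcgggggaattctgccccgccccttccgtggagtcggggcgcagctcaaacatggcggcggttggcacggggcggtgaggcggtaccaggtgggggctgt

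Hmgcs1, which makes the substrate of the rate-limiting reductase and whose expression was not analysed here, held the only exact match in the 29 windows, at position -137 from the start. Cyp51 held TGACGCCAC at -108, Srebf2 held TCACCCCAT at -162, and Hsd17b7 held TCACCTCAC at -117 and a second, reverse match at -97, each with 1 mismatch. Among all 32851 windows at hand, 1.24% held the exact core, against 1 of 29 windows of these genes (3.45%). With 1 mismatch allowed it was 24.2% of all windows and 10 of 29 (34.5%). CCAAT, the box of the SREBP partner NF-Y, was present on either strand in 21 of the 29 windows (72.4%) and in 37.4% of all. The GC box GGGCGG was present in 24 of 29 (82.8%) and in 35.7%. Each motif was counted on its own, also where 2 overlapped, and the windows were not matched for base composition. A match describes the sequence and does not show binding.

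Among the enzymes that make and use mevalonate, Mvk, Pmvk and Mvd were measured. Mvk encodes mevalonate kinase, which adds the first phosphate. Its probe gave 1540, 1572 and 1083 for wild type replicates 1 to 3, and 1496, 1875 and 1704 for knockout replicates 1 to 3, the order kept below. Wild type replicate 3 was low and knockout replicate 1 lay below both other wild type arrays, so the groups overlapped, at a log2 difference of 0.29 (SE 0.18). Pmvk, phosphomevalonate kinase of the next step, read 3045, 3026 and 1810 in wild type and 3870, 3126 and 3190 in knockout mucosa. The groups did not overlap, but 2 of the knockout arrays lay only just above wild type replicates 1 and 2, at a log2 difference of 0.40 (SE 0.23). Mvd, the decarboxylase that yields the isoprene unit, read 4753, 4162 and 3055 in wild type and 4818, 5946 and 5458 in knockout mucosa. Its groups did not overlap, its difference was 0.46 (SE 0.19, 1.37-fold), and they stayed apart after quantile normalization, at 0.30.

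Of the isoprenoid enzymes, Fdps had the greatest difference of the 23 genes in the deposited values with all 6 arrays. Without wild type replicate 3 it was 0.34, below Idi1 (0.38) and Lss (0.36), and without wild type replicate 1 it was 0.65, level with Insig2 (0.65). Fdps encodes farnesyl diphosphate synthase, whose product feeds sterols, ubiquinone, dolichol and the lipid anchors of proteins. The brighter of its probes read 32296, 34984 and 21006 in wild type and 38790, 49983 and 39314 in knockout mucosa (29429 ± 7417 and 42696 ± 6316, mean ± SD, n = 3 each). The groups did not overlap, at a log2 difference of 0.56 (SE 0.22, 1.48-fold), an exact two-sided permutation p of 0.1, the smallest that 3 against 3 arrays can give, and a limma adjusted p of 0.994. After quantile normalization the difference was 0.38, again without overlap. The dimmer Fdps probe differed by -0.053, with 4353 on wild type replicate 1 against 981 to 2434 on the other arrays. Idi1, the isomerase that interconverts the isoprene units, read 5315, 5240 and 6090 in wild type and 5660, 7525 and 7541 in knockout mucosa. Knockout replicates 2 and 3 stood above the other 4 arrays, and knockout replicate 1 lay within the wild type range, at a log2 difference of 0.31 (SE 0.16). After quantile normalization wild type replicate 3 was the highest array for Idi1, at 8278 against 7081 and 7580 on knockout replicates 2 and 3. Ggps1, geranylgeranyl diphosphate synthase, read 764 to 907 on both its probes over all arrays, which was not above background on any of them.

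Sqle and Lss form the ring system. Sqle, squalene epoxidase, a rate-controlling and oxygen-dependent step, read 41137, 38889 and 30353 in wild type and 40662, 58958 and 44264 in knockout mucosa, at 0.38 (SE 0.19). Knockout replicate 2 was the high array, and knockout replicate 1 lay within the wild type range. A second Sqle probe had a like difference of 0.40 (SE 0.25), with knockout replicate 1 (6955) below wild type replicates 1 and 2 (9048 and 7477). Lss, which closes oxidosqualene to lanosterol, read 8057, 7797 and 6671 in wild type and 8327, 10666 and 11825 in knockout mucosa. The groups did not overlap, at 0.44 (SE 0.17, 1.36-fold), although knockout replicate 1 was close to wild type replicate 1. After quantile normalization wild type replicate 3 read 9064 and exceeded knockout replicate 1 at 7373, so the Lss groups overlapped. A dimmer Lss probe, above background on 4 arrays, differed by -0.13 (SE 0.16).

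The 9 enzymes that turn lanosterol into cholesterol were all measured, and their median difference was 0.23. Cyp51, the cytochrome P450 that removes the 14-methyl group, had the greatest with all 6 arrays, 0.44 (SE 0.25). Without wild type replicate 3 it was 0.19, below Nsdhl (0.28), Tm7sf2 (0.27) and Sc5d (0.21), and after quantile normalization it was 0.24 against 0.25 for Tm7sf2. Cyp51 read 19500, 21791 and 12238 in wild type and 18653, 27258 and 25410 in knockout mucosa. Knockout replicate 1 lay below wild type replicates 1 and 2, while knockout replicates 2 and 3 stood above all wild type arrays. The next step, reduction of the 14-15 double bond, can be made by either of a pair of related proteins. Tm7sf2, the dedicated sterol reductase, read 1395, 1261 and 1228 in wild type and 1384, 1643 and 1798 in knockout mucosa (0.31, SE 0.14). Lbr, which also anchors chromatin to the nuclear lamina, read 29779, 22690 and 16445 and then 26410, 25651 and 21389 (0.13, SE 0.23). The Tm7sf2 difference stood at 0.25 after quantile normalization and that of Lbr at -0.063, and neither passed the test.

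The C4-demethylation enzymes followed. Msmo1, the oxidase that starts it, read 32162 to 39709 in wild type and 37188 to 46170 in knockout mucosa, at 0.22 (SE 0.14). Nsdhl, the decarboxylating dehydrogenase, had 4 probes above background on every array, with differences of 0.23 to 0.31. On its brightest probe it read 2350, 2193 and 2446 in wild type and 2247, 3268 and 2837 in knockout mucosa, with the knockout replicates 2 and 3 above all others. After quantile normalization wild type replicate 3 was the highest array on this probe, at 3159 against 3136 and 2878 on knockout replicates 2 and 3. Hsd17b7, the 3-keto reductase, behaved otherwise: it read 16708, 17187 and 9644 in wild type and 19734, 17174 and 13184 in knockout mucosa, so that knockout replicate 1 was the highest and knockout replicate 3 lay below 2 wild type arrays. Of the last enzymes, Ebp, the sterol isomerase, read 24331, 24373 and 17472 and then 25017, 28423 and 24671, without overlap (0.25, SE 0.17). The desaturase Sc5d differed by 0.21 (SE 0.14) with readings of 1245 to 1548 in wild type and 1416 to 1711 in knockout mucosa. Dhcr7, which makes cholesterol from 7-dehydrocholesterol, differed by 0.16 (SE 0.13), with 3003 to 3512 and 3366 to 4152.

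**Figure D2:**
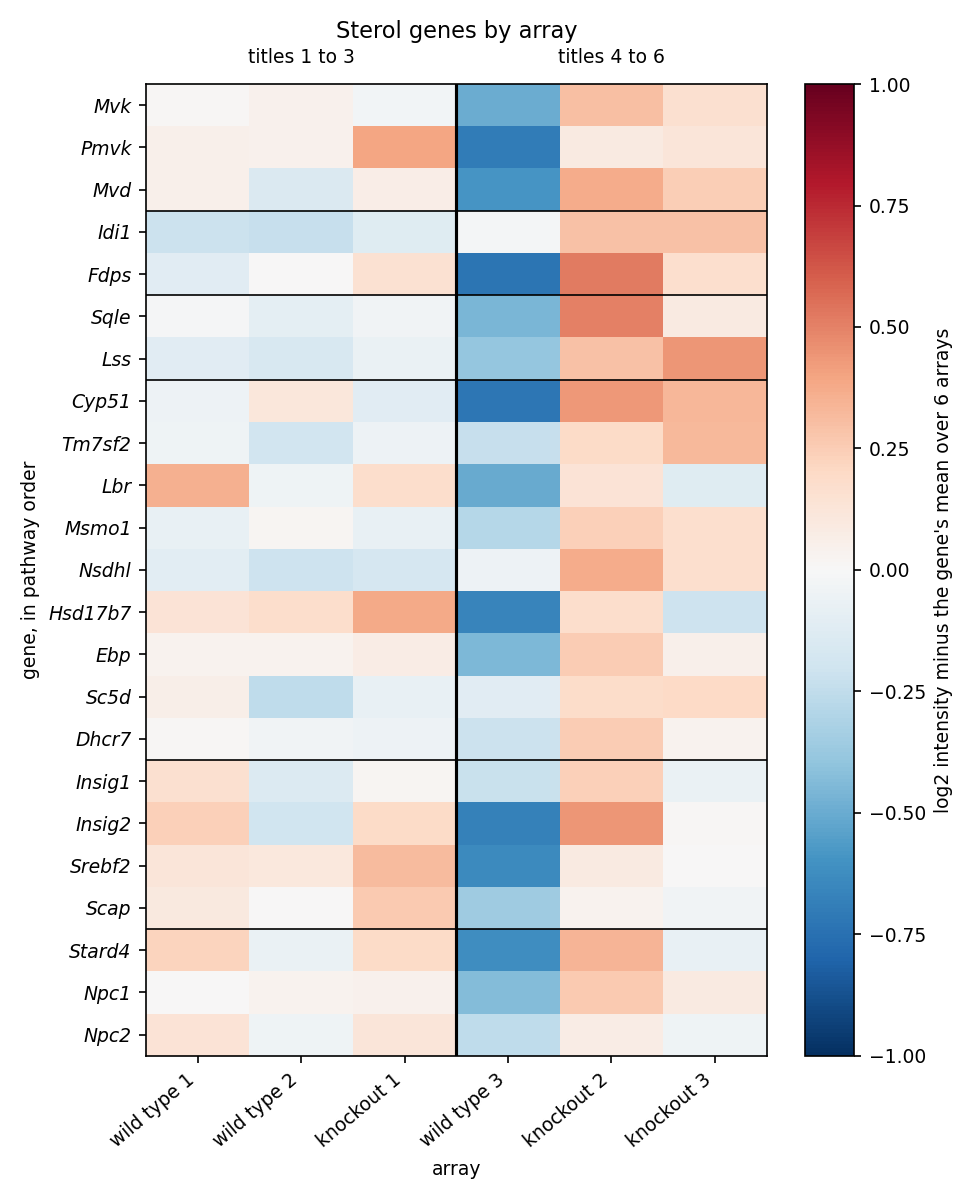
Log2 intensity minus each gene's own mean over the 6 arrays for the 23 tested sterol genes, in pathway order from top to bottom, with horizontal lines between the steps. Columns are arrays, parted by title number. Wild type replicate 3 is lowest for 20 of the 23 genes, and knockout replicate 2 is highest for 13, while Pmvk, Hsd17b7, Srebf2 and Scap are highest on knockout replicate 1.

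The 4 genes of sterol sensing had a median difference of 0.22, with a range of 0.13 to 0.43. Srebf2 read 7120, 7050 and 4223 in wild type and 8176, 6969 and 6594 in knockout mucosa, at 0.28 (SE 0.23). On this probe knockout replicates 2 and 3 lay below wild type replicates 1 and 2, unlike most of the enzymes. Without wild type replicate 3 its difference was 0.03. After quantile normalization it read 6591 and 6659 on knockout replicates 2 and 3, above wild type replicate 1 at 6246. A dimmer Srebf2 probe read 6660, 5252 and 3616 and then 6603, 6033 and 5058 (0.22, SE 0.24). There knockout replicate 2 lay above wild type replicate 2. Scap, the escort, had the same order of knockout arrays as Srebf2 in the deposited values. It read 9076, 8520 and 6640 against 10179, 8692 and 8298 (0.17, SE 0.16, and 0.04 without wild type replicate 3). Insig1, whose transcript is itself an SREBP target, read 30955, 25235 and 23729 in wild type and 28080, 32686 and 26475 in knockout mucosa (0.13, SE 0.15). Insig2 read 31455, 23268 and 16715 and then 30467, 36338 and 26921 on its brightest probe, at 0.43 (SE 0.24). Its second bright probe, matched to another transcript accession, read 18142, 20996 and 17017 and then 21899, 25454 and 24168 without overlap, at 0.35 (SE 0.13). On neither Insig2 probe did the difference pass the test.

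Of the carriers, Stard4, which moves cholesterol through the cytosol, read 10477, 8541 and 5836 in wild type and 10261, 11359 and 8522 in knockout mucosa (0.31, SE 0.23). Npc1 and Npc2 pass cholesterol out of the lysosome after uptake. The brightest Npc1 probe read 16941, 17385 and 12550 and then 17403, 20349 and 18040, without overlap and with knockout replicate 1 at the edge (0.26, SE 0.16). Npc2 read 21243, 18723 and 16230 and then 21033, 20386 and 18757 (0.11, SE 0.14). After quantile normalization all 3 knockout arrays of Npc2, at 18717 to 18849, lay below all 3 wild type arrays, at 18927 to 21735, by less than the spread among the wild type arrays.

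**Figure D3:**
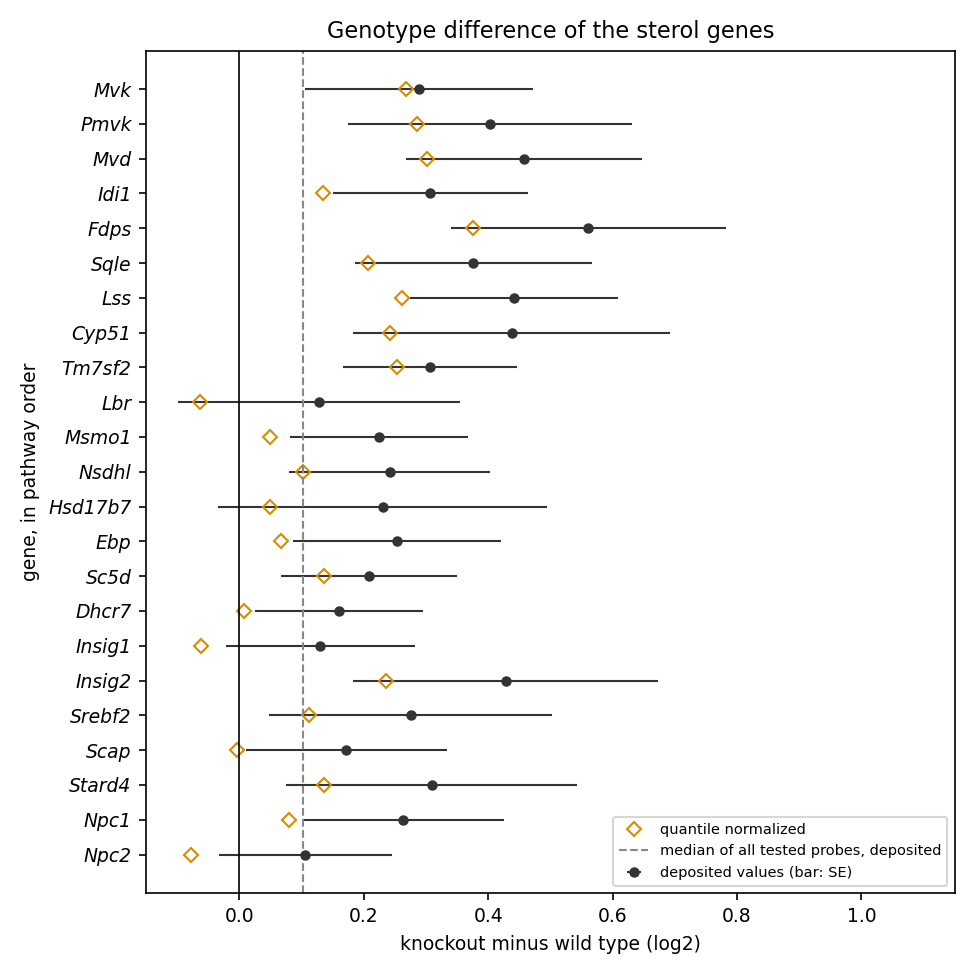
Knockout minus wild type difference in log2 intensity for each of the 23 tested sterol genes, in pathway order. Filled circles are the deposited values with the standard error of the limma fit (n = 3 each), open diamonds the quantile-normalized values, and the dashed line the median of all tested probes, 0.10. Every circle lies to the right of the dashed line, from 0.11 for Npc2 to 0.56 for Fdps, and 4 diamonds lie below 0.

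Counted over the list, 6 of the 23 genes (Pmvk, Mvd, Fdps, Lss, Ebp and Npc1) had groups that did not overlap, all higher in the knockout. Over all tested probes 6.17% had such groups on the higher side and 1.02% on the lower side. The 6 genes make up 26.1% of the 23. The list was chosen with earlier results of these data known, so this share was not tested against that of all probes. After quantile normalization Mvd and Fdps kept separated groups on the higher side, and Npc2 had them on the lower side. The share of all probes with such groups was not counted on that scale.

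The question by title number is whether the genotypes differed alike in both sets. They did not look alike, but no gene passed a test of the difference. Within titles 1 to 3, where the knockout is replicate 1 alone, the median difference of the 23 genes was 0.06 (all probes 0.04). There 18 of the 23 were above 0, as were 59.2% of all probes. Within titles 4 to 6, where the wild type is replicate 3 alone, it was 0.61 (all probes 0.29), and all 23 were above 0, as were 84.8% of all probes. After quantile normalization the medians were -0.02 within titles 1 to 3 (all probes -0.02) and 0.15 within titles 4 to 6 (all probes 0.03). On that scale 10 of the 23 genes and 10072 of all 22640 probes lay above 0 within titles 1 to 3. Within titles 4 to 6 it was 17 of the 23 and 12323 of all probes. The arrays that carried these values alone were the ones rich in squamous and smooth muscle transcripts (knockout replicate 1) and in pancreatic transcripts (wild type replicate 3).

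Cyp51 differed most between the sets, from -0.14 within titles 1 to 3 to 1.10 within titles 4 to 6. The interaction of genotype and set was 1.25 (SE 0.23, limma adjusted p = 0.0902) and did not pass, although it did with a variance trend and robust estimation (limma adjusted p = 0.021), among 435 of all probes. After quantile normalization the Cyp51 differences were -0.25 and 0.60. Fdps followed with 0.21 and 1.08, Mvd with 0.12 and 0.90 and Mvk with -0.057 and 0.72. The least uneven gene was Scap, with 0.21 and 0.36. The interaction was above 0 for all 23 genes and for 77.6% of all tested probes, with medians of 0.49 and 0.25, and 0 of the 23 passed against 0.605% of all probes. At an unadjusted p under 0.05 there were 9 of the 23 and 4151 of all 22640 probes (limma).

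**Figure D4:**
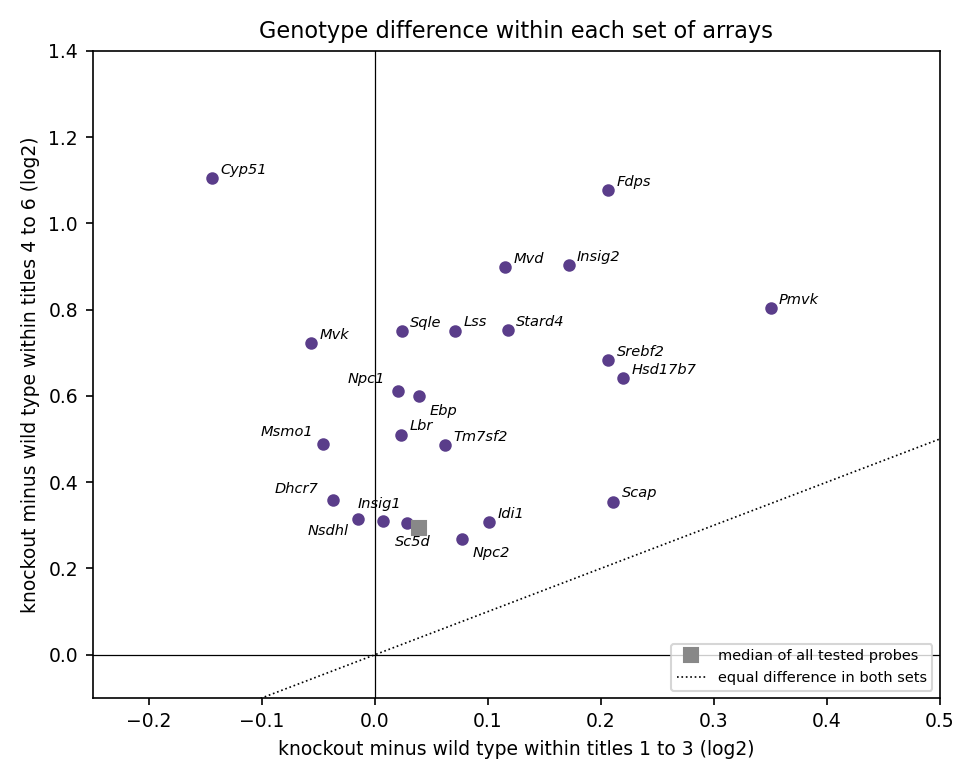
Knockout minus wild type difference in log2 intensity within the arrays titled 1 to 3 (horizontal axis) and within those titled 4 to 6 (vertical axis), 1 point per sterol gene. The square is the median of all tested probes (0.04 and 0.29), and the dotted line marks equal differences. All 23 genes lie above the dotted line, with Cyp51 at -0.14 and 1.10 and Scap, the closest to the line, at 0.21 and 0.36. Each axis rests on 1 array of one genotype.

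Set against set, with the genotype in the model, 6 of the 23 genes (26.1%) read higher on titles 4 to 6 and 17 lower. Of all tested probes 23.1% read higher there. None of the genes passed (0 of 23, against 0.724% of all tested probes, limma). The median of the 23 was -0.15 and that of all probes -0.18, for titles 4 to 6 minus 1 to 3. The genes nearest the threshold read lower on titles 4 to 6: Pmvk by -0.52 (SE 0.14, limma adjusted p = 0.081), Hsd17b7 by -0.60 (SE 0.16, adjusted p = 0.0813) and Srebf2 by -0.51 (SE 0.14, adjusted p = 0.0868). Those that read higher there were led by Idi1 (0.31, SE 0.12, limma adjusted p = 0.142) and Nsdhl (0.27, SE 0.14, adjusted p = 0.239). The dimmer Scap probe came closer still, with -0.78 (SE 0.14, limma adjusted p = 0.0544), where its brighter probe gave -0.33. At an unadjusted p under 0.05 there were 5 of the 23 and 6386 of all 22640 tested probes (limma). Without knockout replicate 1 the set difference was that of wild type replicate 3 alone from wild type replicates 1 and 2. That single array had the lowest value of the 6 for 64.9% of tested probes. Pmvk, Fdps, Cyp51, Hsd17b7 and Srebf2 were then among the genes lower on titles 4 to 6, at -0.75, -0.68, -0.75, -0.81 and -0.75. After quantile normalization Idi1 (0.64, limma adjusted p = 0.035) and Nsdhl (0.56, adjusted p = 0.0358) passed as higher, among 631 of all 22640 probes. With the set as a block in the genotype comparison the median of the 23 was 0.32, none passed, and 0.0133% of all probes did.

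Several genes had more than 1 probe, and in the deposited values these mostly shared a sign. Of the 48 probes 33 lay above background on all 6 arrays, 6 on 1 to 5 arrays and 9 on none. Among the 7 genes with 2 or more probes above background throughout, the sign of the genotype difference was shared in 6. On that scale 76.9% of all tested probes lay above 0. This count leaves out the dimmer probes of Fdps and Lss, whose sign was opposite to that of the brighter ones. The exception was Npc1. Its brightest probe differed by 0.26, while the 2 dimmer ones differed by -0.11 and -0.035. The probe at -0.11 read 13549, 11568 and 9645 in wild type and 13614, 8350 and 10596 in knockout mucosa, so knockout replicate 2, the highest array on the brightest probe, was the lowest on this one. All 3 are annotated to the same transcript record. For Insig1 the 3 probes gave 0.13, 0.22 and 0.36, all with the lowest value on wild type replicate 3 and the highest on knockout replicate 2. After quantile normalization they gave -0.062, 0.067 and 0.22. The brightest was then highest on wild type replicate 3, at 31646 against 30323 on knockout replicate 2. The 2 Scap probes also parted in sign on that scale, at -0.0038 and 0.16.

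**Figure D5:**
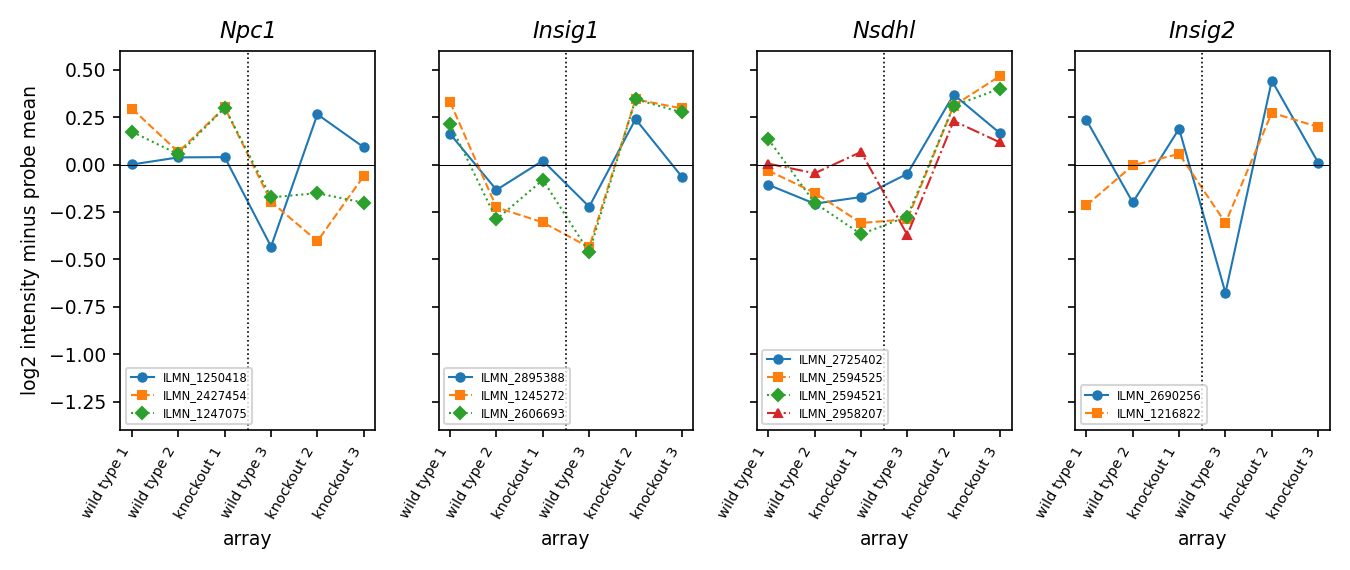
Log2 intensity minus each probe's mean over the 6 arrays, for the probes of Npc1, Insig1, Nsdhl and Insig2 above background on all arrays. Each line is 1 probe, and the vertical dotted line parts titles 1 to 3 from 4 to 6. The Npc1 probes part on knockout replicate 2, where one read 20349 and another 8350. In these deposited values the 3 probes of Insig1 share their lowest and highest arrays.

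Other genes of sterol and isoprenoid metabolism lay nearer to all probes. Of 46 listed, 38 were found and 35 tested, and 0 passed (0.00883% of all probes). Their median difference was 0.19, with 29 higher and 6 lower, and 0.04 after quantile normalization. At an unadjusted p under 0.05 there was 1, Aacs, which makes acetoacetyl-CoA for sterol synthesis in the cytosol. It read 20183, 20529 and 16566 in wild type and 22735, 32708 and 26817 in knockout mucosa, without overlap, at 0.51 (SE 0.17, limma adjusted p = 0.994). Next on the higher side were Dhdds (0.23), of dolichol synthesis, and Erlin2 (0.26), of Insig and reductase breakdown. On the lower side Tmem97, an SREBP target that binds Npc1, read 39816, 32140 and 52528 in wild type and 32397, 27975 and 30768 in knockout mucosa (-0.42, SE 0.19). Its wild type replicate 3 was the highest array, the reverse of the order in most of the 23 genes. Acat1 (-0.32), the mitochondrial thiolase, above background on 3 of the 6 arrays, and Nr1h3 (-0.11), the oxysterol receptor LXR alpha, came after it.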

How the data were processed

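Biotin-labelled cRNA of total RNA (Ambion MessageAmp kit, per the labels) was hybridised to 6 Illumina arrays. The deposited table holds 1 linear intensity per array for 45281 probes. In these deposited intensity values every array has a median of 1000 and none lies below 542, as after scaling to a common median with the background left in; no source records the step. Folds of dim probes are understated for that reason. Scanner, software and any upstream filter: not given in the sources used here. The number of arrays limits the precision.

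Probes were named from the platform annotation: 34885 had 1 gene symbol, 18 several and 10378 none. Values were floored at 16 and log2 transformed, and the 22640 probes above the median probe (mean intensity 991) were kept. Knockout and wild type were compared with lmFit and eBayes of limma 3.58.1 (R 4.3.3), two-sided, with the threshold at 0.05 after Benjamini-Hochberg adjustment across the kept probes. The brightest probe stands for a gene. The same fit gave the title-number set (genotype in the model) and its interaction with genotype. The fits were tested on simulated data. Named were all members, Lasp1 and, of the other list, the genes of smallest unadjusted p, up to 3 in each direction. Marker lists are given by their sums. Members and lists were chosen with earlier results of these data known. Same-numbered replicates had correlated deviations of 0.045, -0.30 and 0.53, so the numbers were not taken as pairs. Alternatives were normalization, background, filter, offset, variance model, array weights, blocks, probe choice, threshold and left-out arrays. Plots used matplotlib 3.10.9 (Python 3.11.15).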

Additional observations from a re-analysis of the deposited data

How the results depend on the processing

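Precision is limited by 3 arrays a group and by a background near the median signal. The median of the 23 genes stayed above 0 under every alternative run, from 0.12 with quantile normalization and the title-number block to 0.38 without both arrays with squamous transcripts. The count of the 23 that passed stayed 0 except with array weights (7). Over all probes 0 passed above the 75th percentile of signal, with 1000 added before log2, with the replicate block, and without both squamous or both pancreatic arrays. With array weights 1816 passed, and leaving out single arrays gave 0 to 3. The replicate block left the median at 0.28 and changed no call of the 23. By title number, 2 of the 23 passed after quantile normalization (631 of all 22640 probes) and 2 after cyclic loess (449). There were 3 at an adjusted p under 0.1 (3181), and 0 to 5 on leaving out single arrays. The 5 came without knockout replicate 1, where 4177 of all 22640 probes passed as well. That set difference rested on wild type replicate 3 alone against wild type replicates 1 and 2. The interaction passed for 1 gene, Cyp51, with a variance trend and robust estimation (435 probes) and for 1 at an adjusted p under 0.1 (225 probes). Single genes turned sign after quantile normalization (Lbr -0.063, Insig1 -0.062, Scap -0.0038, Npc2 -0.078). On leaving out single arrays Lbr ranged from -0.093 to 0.34 and Hsd17b7 from -0.041 to 0.39. Quantile normalization plus a block for the title number, chosen after seeing the data as were the fits without 2 arrays, left 15 of the 23 above 0 and turned Idi1 (-0.079), Lbr (-0.023), Msmo1 (-0.045), Nsdhl (-0.083), Dhcr7 (-0.092), Insig1 (-0.13), Scap (-0.0022) and Npc2 (-0.11). The cause of these changes was not tested.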
